A study of Mus musculus with 76 samples.

Results

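The hypoxia and glycolysis genes are a list of 36 genes that cells are known to switch on when oxygen is short, together with the enzymes and transporters that break glucose down to lactate. They were taken by symbol from the array values, with the highest-mean probe set standing for each gene. Of the 36, 33 were measured, among 18194 genes named by the arrays. Bnip3l was found only on probe sets that name several genes, Gpi1 and Eno1 were not among the annotated probe sets used here, and the listed Ero1l is carried under its present symbol Ero1a. All 33 passed the filter on low values, and 0 of their single-array values lay below 2.95, the median of the control probe sets for bacterial trp, a sequence foreign to the mouse.

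The study profiled RNA of 76 mouse tumours (strain C57BL/6), 1 Affymetrix array each, and values are on the log2 scale. It used directed complementation, in which a tumour raised on a doxycycline-inducible HER2(V659E) oncogene loses that driver once doxycycline is withdrawn, and 1 of 13 introduced genes has to keep it growing. All 13 groups share this origin and the withdrawal. The question put to the members is in which groups of introduced gene they were high or low.

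Receptor tyrosine kinases were introduced in the groups HER2 and ErbB3, in FGFR3, FGFR2aIIIb and FGFR2aIIIc, and in RONd160 and RON+MSP, the last with a ligand. The protein kinases FAK1, TNK2 and RSK2 act inside the cell, PIP5K1B phosphorylates lipids, and both MAP3K11 (MLK3) and MAP3K7 (TAK1) start MAP kinase cascades. FAK1 had 4 arrays and the other 12 groups 6 each. The 6 MAP3K11 arrays are labelled with cachexia, a loss of body mass that accompanies cancer, and the remaining 70 as having none, so the introduced gene and cachexia cannot be told apart. Arrays also carry a label T1, T2 or T3 that the labels leave undefined. They are called biological replicates, but the labels do not say from which animals or tumour lines they came. The p-values therefore measure only how far these arrays spread, in part perhaps for technical reasons, and what an introduced gene did cannot be told apart from what differed between tumour lines. In whole tumours, fewer cells of a type and less RNA per cell cannot be told apart either.

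Most of the listed genes are known targets of the hypoxia-inducible factors (HIFs), pairs of an alpha and a beta subunit that bind DNA at a short core sequence. With oxygen present, prolyl hydroxylases of the Egln family mark the alpha subunit for destruction. When oxygen is short the alpha subunit accumulates, and glucose uptake, glycolysis and lactate export rise while less pyruvate enters mitochondria. Several of the genes are also switched on by growth signals without a shortage of oxygen, and glycolysis is high in many tumours.

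Promoters of 4 members are shown, those with the largest F statistic below among members whose promoter was available and holds the HIF core letters. Slc2a3 had a larger F statistic than Egln3 and Mxi1 but no promoter in the source used. The promoter of Car9 is shown because its values carry much of what follows, and it was added after its values were seen. Each line gives the 250 bases before the start of transcription, 5′ to 3′ on the gene's strand, from RefSeq on GRCm38.p6. Capitals mark matches to ACGTG or GCGTG on either strand, so that CACGT and CACGC are reverse-strand matches.
Hk1: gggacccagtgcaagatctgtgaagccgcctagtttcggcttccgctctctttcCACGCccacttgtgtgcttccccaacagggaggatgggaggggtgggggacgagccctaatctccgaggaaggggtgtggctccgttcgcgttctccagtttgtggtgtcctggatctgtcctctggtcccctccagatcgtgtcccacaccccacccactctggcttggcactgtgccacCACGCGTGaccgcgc
Pfkp: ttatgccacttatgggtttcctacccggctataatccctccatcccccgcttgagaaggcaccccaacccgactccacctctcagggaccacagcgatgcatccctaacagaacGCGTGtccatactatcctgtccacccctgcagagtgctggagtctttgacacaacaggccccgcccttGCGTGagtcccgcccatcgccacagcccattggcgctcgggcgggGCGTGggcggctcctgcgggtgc
Egln3: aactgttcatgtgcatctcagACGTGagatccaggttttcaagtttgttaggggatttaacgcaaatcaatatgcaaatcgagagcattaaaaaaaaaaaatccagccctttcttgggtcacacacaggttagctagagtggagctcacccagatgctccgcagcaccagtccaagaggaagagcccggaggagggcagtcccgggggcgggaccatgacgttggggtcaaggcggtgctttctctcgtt
Mxi1: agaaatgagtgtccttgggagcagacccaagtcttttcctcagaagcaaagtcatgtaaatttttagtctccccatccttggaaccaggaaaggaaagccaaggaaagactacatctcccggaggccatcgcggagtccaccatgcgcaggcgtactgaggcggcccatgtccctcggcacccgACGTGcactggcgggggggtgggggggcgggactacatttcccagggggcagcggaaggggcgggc
Car9: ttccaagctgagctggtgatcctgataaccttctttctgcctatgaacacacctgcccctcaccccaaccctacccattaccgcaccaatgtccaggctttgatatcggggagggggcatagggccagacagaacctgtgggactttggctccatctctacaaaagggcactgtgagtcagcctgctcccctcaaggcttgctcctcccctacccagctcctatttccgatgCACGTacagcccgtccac
The Hk1 stretch is at chr10:62340422-62340671 on the minus strand, before the second of its 2 listed starts, and the capitals CACGCGTG in it are 2 overlapping matches, 15 and 12 bases before the start. The Pfkp stretch (chr13:6648772-6649021, minus strand) has its matches 136, 68 and 23 bases before the start. In Egln3 (chr12:54203875-54204124, minus strand) the match stands 229 bases before the start, and in Mxi1 (chr19:53329163-53329412, plus strand, second of 3 starts) 66 bases. The Car9 stretch (chr4:43506776-43507025, plus strand) has 1 match, 18 bases before the start. For a gene with several starts, the first listed start with a match before it is shown. The promoter of the first listed start held 0 matches in Hk1 and 0 in Mxi1.

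Of the 33 measured members, 31 had a promoter of 250 bases before to 50 bases after the start in RefSeq, and Ndrg1 and Slc2a3 are named only. ACGTG or GCGTG was present in 29 of these 31 genes (93.5%), against 46.7% of 27018 genes. Counted by promoter, so that each start of a gene counts once, the shares were 78.7% of 47 and 43.8% of 32841. ACGTG was found in 74.2% of the members and in 21.8% of all genes. Tpi1 and Car12 held neither motif in this window. A match is a description of the letters and not a bound site, and these shares were given no test.

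**Figure D1:**
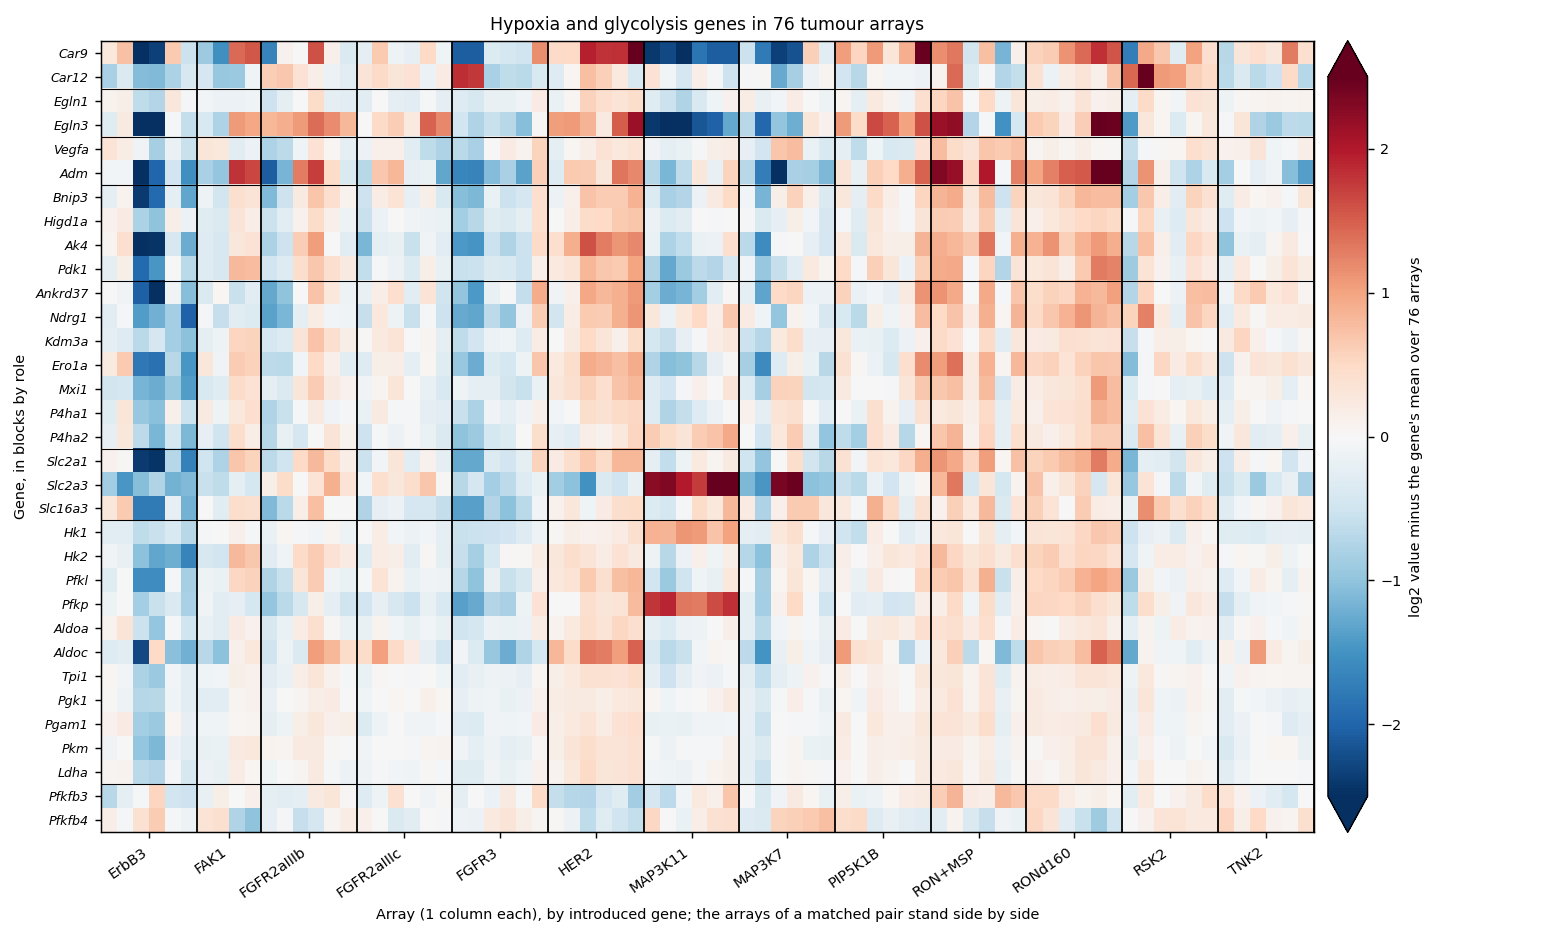
Each column is 1 of the 76 arrays, grouped by introduced gene with matched pairs side by side, and each line is 1 of the 33 genes, in blocks by role. Colour is the log2 value minus the gene's mean over the 76 arrays, red for higher and blue for lower; 1 pair of ErbB3 arrays is low in most genes, while HER2 and RONd160 are mostly red and MAP3K11 is mixed.

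The members varied unevenly over the 76 arrays. The range from the lowest to the highest array was smallest for Pgk1 (phosphoglycerate kinase), at 1.08 log2 units, and largest for the oxygen sensor Egln3, at 6.55, with a median of 2.49 over the members. Several glycolytic enzymes stood at the narrow end, with ranges of 1.21 in Ldha, 1.36 in Tpi1 and Pgam1, 1.48 in Aldoa and 1.57 in Pkm. Adm spanned 5.32, Car9 5.65 and the neuronal-type glucose transporter Slc2a3 5.16. Group means were furthest apart in Car9, from 5.81 in MAP3K11 to 9.53 in HER2.

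Arrays of a group fell into pairs. Within each group they were matched on the median expression of each of the 19 autosomes, and the chromosome profiles of the 38 pairs correlated at a median Pearson r of 0.957, where other arrays of a group reached 0.162, a gap that the matching favours. The T labels differed in 38 of 38 pairs. In the members the median gap between 2 arrays was 0.24 within a pair, 0.35 between other arrays of a group and 0.50 between groups. Counts of members, roles and markers are therefore given also with these pairs as a random block in the model, which was decided after the data were seen. The alternatives that leave out arrays or add a covariate were run without the block. The share of all genes called under each of them is not given here. Their counts therefore cannot tell a change in the members from a change in all genes. Where the pairs are not named, values are from the fit that counts every array as separate.

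All 33 members differed among the 13 groups by limma's moderated F test (adjusted p under 0.05), where 85.9% of all genes tested did, and 28 with the pairs as a block, where 54% of all did. Egln1, Vegfa, Bnip3, P4ha2 and Pfkfb4 were the 5 that lost the call. The largest F statistic was that of hexokinase 1, Hk1 (23.8, adjusted p = 1.04e-16, and 7.9e-12 with the pairs), and Pfkp, the platelet-type phosphofructokinase, followed at 17.96. Slc2a3 had 10.9, Egln3 8.90, the Myc antagonist Mxi1 7.85 and hexokinase 2, Hk2, 7.56. The lowest group mean was that of ErbB3 in 22 members, MAP3K11 in 4 and FGFR3 in 3. The highest was that of HER2 in 11 members, RONd160 in 10, and MAP3K11 and RON+MSP in 4 each.

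**Figure D2:**
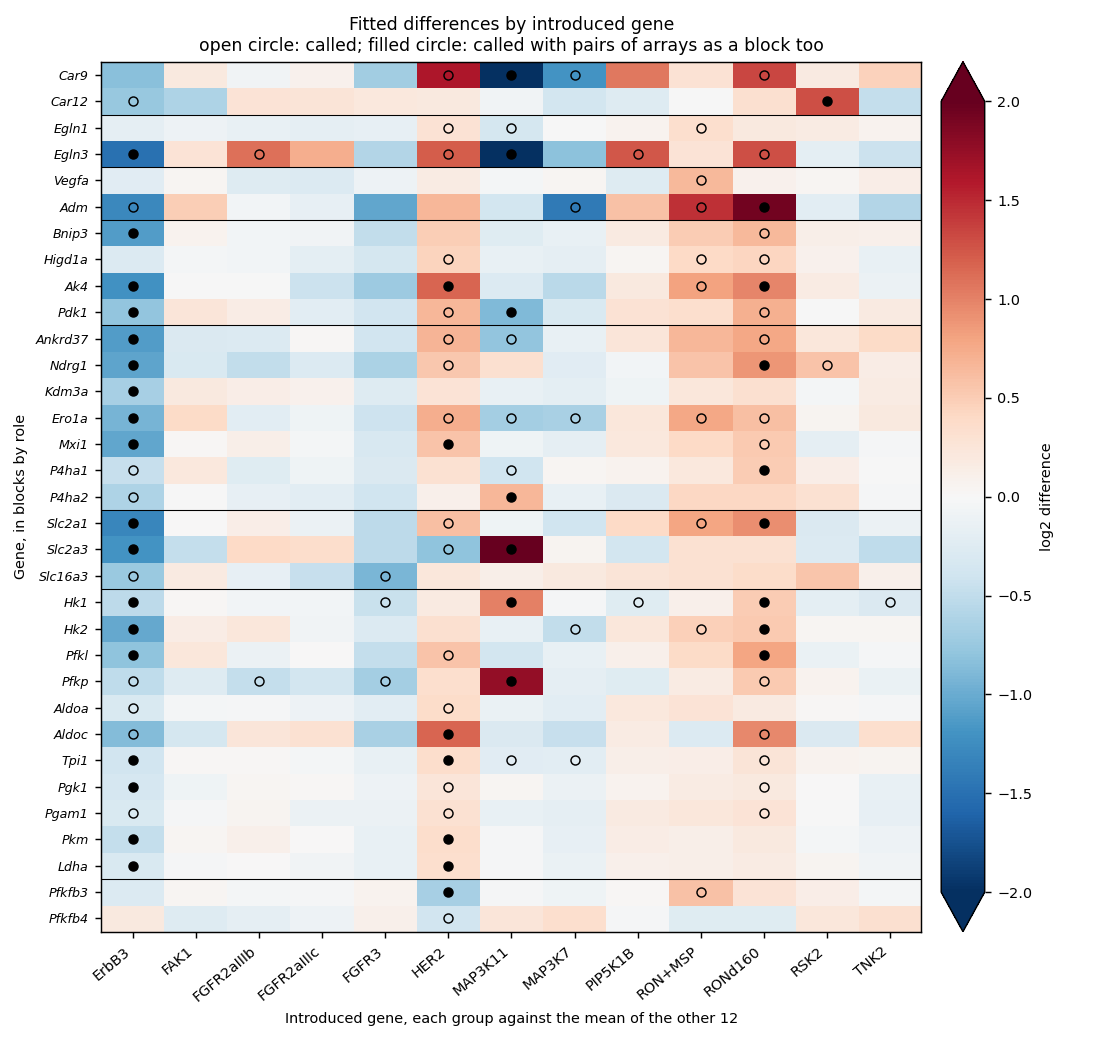
Colour gives the fitted log2 difference of each gene (lines) in each group (columns) from the mean of the other 12, with open circles for adjusted p under 0.05 and filled circles where this held with the pairs as a block too. ErbB3 holds 27 circles, all for lower genes, RONd160 21 and HER2 19 for higher genes, and MAP3K11 has 4 higher and 8 lower.

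ErbB3 tumours were low across nearly the whole list. Against the mean of the other 12 groups, 27 of the 33 members were lower and 0 higher by limma, where 13.6% of all genes were lower and 15% higher. With the pairs as a block 18 were lower, where 6.12% of all were lower and 5.8% higher. The members' median difference was -0.75 on the log2 scale, beside -0.002 over all genes, and 32 of 33 differences were below 0. Of 11 glycolytic enzymes 11 fell (7 with the pairs), of 3 transporters 3 (2 with the pairs), of 7 other HIF targets 7 (5 with the pairs) and of 4 mitochondrial members 3 (3 with the pairs).

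Egln3 (chromosome 12, 54178981 to 54203874), a prolyl hydroxylase that is itself a HIF target, had a lowest, median and highest value of 4.72, 8.22 and 8.88 in ErbB3, and of 5.28, 8.90 and 11.28 in the other 70 arrays. The difference was -1.49 ± 0.39 (SE, n = 6; adjusted p = 0.0026, and 0.0266 with the pairs). The 6 arrays were far apart, and only the lowest lay outside the range of the others. Slc2a1 (chromosome 4, 119108745 to 119137330), the main glucose transporter of dividing cells, was at 8.42, 9.67 and 10.97 against 9.58, 11.03 and 12.16. Its difference of -1.31 ± 0.23 had adjusted p = 1.94e-05, and 0.00165 with the pairs, and again the groups overlapped. Adenylate kinase 4, Ak4, a mitochondrial enzyme that handles AMP, was at 4.55, 6.51 and 7.75 against 5.75, 7.34 and 8.93. It was lower by -1.21 ± 0.25 (adjusted p = 0.000232, and 0.015 with the pairs). The peptide hormone adrenomedullin, Adm, was at 6.62, 8.25 and 9.19 against 6.75, 9.19 and 11.94. Its call (-1.28 ± 0.38, adjusted p = 0.00741) ended with the pairs (adjusted p = 0.0937).

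Other members that fell in ErbB3 were Slc2a3 (-1.19), the mitophagy receptor Bnip3 (-1.12), Ankrd37 (-1.11), Ndrg1 (-1.06), Mxi1 (-1.04), Hk2 (-1.02) and the oxidase Ero1a (-0.94), which makes disulfide bonds in the endoplasmic reticulum. Pyruvate dehydrogenase kinase 1, Pdk1, which holds pyruvate back from the mitochondria, differed by -0.80 and the histone demethylase Kdm3a by -0.67. The liver-type phosphofructokinase Pfkl was lower by -0.81, the aldolases Aldoc and Aldoa by -0.87 and -0.31, and Pkm, pyruvate kinase, by -0.48. Ldha, which turns pyruvate into lactate, and Slc16a3, which exports the lactate, differed by -0.31 and -0.75. The 6 members not called were Car9 (-0.84, adjusted p = 0.122), Egln1, Vegfa, Higd1a, Pfkfb3 and Pfkfb4.

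Part of the depth of the fall came from 1 pair of arrays. The arrays T1 replicate 2 and T3 replicate 2 were matched to each other, and they had Egln3 at 4.72 and 5.33, Slc2a1 at 8.48 and 8.42, Ak4 at 4.55 and 4.87 and Adm at 6.62 and 7.27. The pair of T1 replicate 1 and T3 replicate 1 had Egln3 at 8.36 and 8.88 and Slc2a1 at 10.97 and 10.89, close to the median of the other groups. The first pair stood among the 10 lowest of all 76 arrays in 30 and 27 of the 33 members, T3 replicate 3 in 26 and the other 3 ErbB3 arrays in 9, 3 and 1. Without that pair, an alternative chosen after seeing the data, 9 members were called, 8 of them among the 27. The members' median was then -0.40, beside -0.75 with all arrays, and fewer ErbB3 arrays were left for the test. The 9 members called are named next. These were Slc2a3 (-1.28), Ndrg1 (-0.90), Mxi1 (-0.90), Hk2 (-0.90), Aldoc (-0.78), Slc2a1 (-0.70), Kdm3a (-0.69) and Hk1 (-0.46), with Pfkfb3 (-0.52) added. Car9 was then at 0.13.

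Markers of other cell types moved with the ErbB3 group. Of 12 macrophage markers 8 were higher (6 with the pairs), with array means of the list (log2 values centred on each gene's mean) from 0.16 to 0.85. Of 10 fibroblast markers 5 were higher and 1 lower (4 and 1 with the pairs, means 0.01 to 0.91). Of 24 skeletal muscle markers 12 were higher (0 with the pairs by limma, means -1.49 to 3.49). Of 10 mammary epithelial markers 2 were higher and 2 lower (0 and 2 with the pairs), and array means ran from -1.19 to 0.07. The lower 2 were Krt18 (-3.63) and Krt8 (-1.02). Over the 10 markers the median difference was -0.16, with 4 above 0 and 6 below, so Krt18 weighed most in the low list mean. With the muscle mean as a covariate 27 members were called, with the fibroblast mean 23, with the macrophage mean 17 and with the epithelial mean 14. With the epithelial mean, Slc2a1 was at -0.95 (adjusted p = 0.0071) and Hk2 at -0.87, while Egln3 was at -0.78 and Adm at -0.53, neither of them called. The covariates other than muscle were added after the data were seen.

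HER2 tumours, in which HER2 itself was introduced, had most of the called members higher. Against the other 12 groups 19 members were higher and 3 lower by limma, where 15.5% of all genes were higher and 11.1% lower. The block of pairs left 6 higher and 1 lower, where 5.91% and 3.63% of all were. The members' median was 0.35, beside 0.01 over all genes, and 30 of 33 differences were above 0. Of 11 glycolytic enzymes 8 rose (4 with the pairs), of 4 mitochondrial members 3 (1 with the pairs), of 7 other HIF targets 4 (1 with the pairs) and of the 2 oxygen sensors 2 (0 with the pairs, by limma).

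Car9 (chromosome 4, 43507026 to 43513729) codes for carbonic anhydrase 9, a membrane enzyme that helps cells export acid. Its lowest, median and highest values were 8.48, 9.83 and 10.59 in HER2 and 4.94, 8.13 and 10.47 elsewhere. All 6 HER2 arrays lay above the median of the others, within their range but for the highest. The difference was 1.62 ± 0.41 (SE, n = 6; adjusted p = 0.00221), and it missed the threshold with the pairs (adjusted p = 0.0502). Egln3 was at 8.89, 9.72 and 10.82 against 4.72, 8.71 and 11.28, a difference of 1.21 ± 0.38 (adjusted p = 0.0141, and 0.0791 with the pairs). Aldoc (chromosome 11, 78323073 to 78327781), an aldolase best known from brain, was at 8.14, 8.83 and 9.15 against 5.41, 7.58 and 9.14. It differed by 1.16 ± 0.24 (adjusted p = 0.000191, and 0.0309 with the pairs). Ak4 (chromosome 4, 101416478 to 101467771) was at 7.74, 8.48 and 8.93 against 4.55, 7.24 and 8.67. Its difference was 1.16 ± 0.25 (adjusted p = 0.000404, and 0.0187 with the pairs). In both genes the HER2 arrays were all above the median of the others and overlapped with them.

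Smaller differences that held with the pairs were those of Mxi1 (0.57), Tpi1 (0.35), Pkm (0.35) and Ldha (0.33). Ero1a (0.73), Ankrd37 (0.68), Pdk1 (0.66), Slc2a1 (0.61), Pfkl (0.58) and Ndrg1 (0.54) were called only without the pairs. The 3 members that fell were Slc2a3 (-0.80, adjusted p = 0.0255), Pfkfb4 (-0.38) and Pfkfb3 (-0.66, adjusted p = 2.5e-05, and 0.00809 with the pairs). The other Pfkfb3 probe set, with a mean of 4.40 against 6.72, was at 0.05 in HER2 and not called. The other Slc2a3 probe sets, at -0.61, -0.11 and -0.11, were not called either. With the mean of all probe sets of a gene Slc2a3 lost its call and Pfkfb3 did not. Pfkfb3 and Pfkfb4 make fructose 2,6-bisphosphate, the activator of phosphofructokinase. Within the HER2 group the array T3 replicate 1 was among the 10 highest of all arrays in 23 members.

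Of 10 fibroblast markers 8 were lower in HER2 (5 with the pairs), with list means from -1.09 to -0.38. Of 12 endothelial markers 5 were lower (1 with the pairs) and of 12 macrophage markers 3 (2 with the pairs). The epithelial mean ran from 0.20 to 0.69, with 2 markers higher (1 with the pairs). The count of 22 members was the same with the muscle mean as a covariate, 11 with the macrophage mean, 2 with the fibroblast mean (Aldoc and Pfkfb3) and 1 with the epithelial mean (Pfkfb3). Car9 was at 0.86 with the fibroblast mean and 0.72 with the epithelial mean, neither called (adjusted p = 0.267 and 0.275).

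In RONd160 tumours, which carry a form of the receptor RON, 21 members were higher and 0 lower, where 11.4% of all genes were higher and 11.9% lower. Under the block of pairs 8 were higher, where 4.13% of all were higher and 4.6% lower. The members' median was 0.51 and 32 of 33 differences were above 0. All 4 mitochondrial members rose (1 with the pairs), as did 8 of 11 glycolytic enzymes (3 with the pairs) and 5 of 7 other HIF targets (2 with the pairs), and neither PFKFB gene was called.

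Adm (chromosome 7, 110627657 to 110629820) was at 10.24, 10.77 and 11.94 in RONd160 against 6.62, 9.06 and 11.57 in the other arrays. Every RONd160 array was above the median of the others, although some of those reached as high. The difference of 1.92 ± 0.37 (SE, n = 6) had adjusted p = 9.86e-05, and 0.00883 with the pairs. Car9 was at 8.59, 9.28 and 9.83 against 4.94, 8.13 and 10.59, higher by 1.33 ± 0.41 (adjusted p = 0.0129, and 0.129 with the pairs). Egln3 was at 8.87, 9.30 and 11.28 against 4.72, 8.71 and 10.88, higher by 1.30 ± 0.38 (adjusted p = 0.00947, and 0.0678 with the pairs). The highest Egln3 value of all 76 arrays was in RONd160 T1 replicate 3, and this array was the highest of all in 7 members. Without it 13 members were called.

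The members that kept their call with the pairs in RONd160 were Adm, Ak4 (0.98), Slc2a1 (0.93), Ndrg1 (0.88), Pfkl (0.79), Hk2 (0.53), Hk1 (0.51) and P4ha1 (0.51), a subunit of the enzyme that hydroxylates collagen. Aldoc (0.96), Ankrd37 (0.78), Pdk1 (0.71), Bnip3 (0.65) and Pfkp (0.52) were called only without them. Of the epithelial markers 2 were higher (1 with the pairs, list means 0.08 to 0.60), and 2 macrophage markers and 1 fibroblast marker were lower (0 and 0 with the pairs by limma). With the epithelial mean as a covariate 11 members were called, with Adm at 1.41 (adjusted p = 0.00422) and Hk1 at 0.49, and with the macrophage mean 14. With the muscle mean 20 were called, and with the fibroblast mean 20.

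RON+MSP tumours, with RON and a ligand, had 9 members higher and 0 lower, where 4.18% of all genes were higher and 4.39% lower. With the pairs as a block 0 were called by limma, where 0.224% and 0.238% of all were, and 13 members had an unadjusted p under 0.05, against 18 without the block. The members' median was 0.31 and 30 differences were above 0. Adm was at 9.21, 10.88 and 11.57 against 6.62, 9.06 and 11.94, so that all 6 arrays exceeded the median of the others. It was higher by 1.45 ± 0.37 (SE, n = 6; adjusted p = 0.00844, and 0.168 with the pairs). Vegfa, the growth factor of blood vessels, was higher by 0.65 (adjusted p = 0.00286), Pfkfb3 by 0.59, Slc2a1 by 0.78, Ero1a by 0.77 and Ak4 by 0.81. The count moved with single arrays: 2 members were called without T1 replicate 1, 3 without T2 replicate 2 or T3 replicate 2, and 17 without T2 replicate 1. Of the macrophage markers 2 were lower (0 with the pairs by limma, list means -1.07 to 0.18), and with that mean as a covariate 2 members were called. With the epithelial or the fibroblast mean the count was above 9, as given in the last section. Higher were 2 of 24 skeletal muscle, 2 of 10 fibroblast and 1 of 12 endothelial markers, and 1 of 11 proliferation markers was lower. With the pairs 0 of these were called by limma. A direct test of RON+MSP against RONd160 was not made.

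MAP3K11 tumours, those labelled with cachexia, did not move in 1 direction. The largest changes were a rise of Slc2a3, Pfkp and Hk1 and a fall of Egln3 and Car9. Against the other 12 groups 4 members were higher and 8 lower, where 25% of all genes were higher and 29.3% lower, so the share of members called (12 of 33) was not above that of all genes. Under the block of pairs 4 were higher and 3 lower, where 17.3% and 22.1% of all were. The members' median was -0.15, beside -0.02 over all genes.

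Slc2a3 (chromosome 6, 122727809 to 122802363), a glucose transporter of high affinity, was at 9.40, 9.94 and 11.31 in MAP3K11 and at 6.16, 7.33 and 10.11 in the other 70 arrays. The difference was 2.74 ± 0.28 (SE, n = 6; adjusted p = 7.02e-13, and 1.12e-09 with the pairs). The overlap came from 1 pair of MAP3K7 arrays at 10.04 and 10.11. Pfkp (chromosome 13, 6579874 to 6649060) was at 10.80, 11.21 and 11.40 against 8.14, 9.39 and 10.29. It was higher by 1.76 ± 0.14 (adjusted p = 1.37e-16, and 1.29e-10 with the pairs), and all 6 arrays lay above all 70 others. Hk1 (chromosome 10, 62268855 to 62379920), which traps glucose in the cell as its phosphate, ran from 10.86 to 11.25 in MAP3K11 and reached 10.82 elsewhere. Its difference of 1.01 ± 0.08 had adjusted p = 5.69e-17, and 1.82e-12 with the pairs. Hk1 and Pfkp in MAP3K11 were the only 2 cases, over the 33 members and 13 groups, in which every array of a group lay above all others; in 0 cases did every array lie below. P4ha2, another collagen prolyl hydroxylase subunit, was the fourth that rose (0.66, adjusted p = 0.000794, and 0.0237 with the pairs).

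Egln3 was at 5.28, 6.39 and 7.39 in MAP3K11 against 4.72, 8.90 and 11.28, and 65 of the 70 other arrays lay above all 6. Its difference was -2.59 ± 0.38 (SE, n = 6; adjusted p = 4.2e-08, and 5.49e-06 with the pairs). Car9 was at 5.42, 5.84 and 6.19 against 4.94, 8.41 and 10.59, with 64 of the 70 above all MAP3K11 arrays. Its difference was -2.41 ± 0.41 (adjusted p = 1e-06, and 0.000374 with the pairs). Among the arrays with values as low were the ErbB3 pair described above, in both genes, and a pair of MAP3K7 arrays in Car9. Further arrays, not named here, were as low in each gene. Pdk1 (-0.88, adjusted p = 9.17e-05) also held with the pairs, while Ankrd37 (-0.79), Ero1a (-0.69), P4ha1 (-0.41), Egln1 (-0.36) and Tpi1 (-0.23) did not. Slc2a1, Hk2, Pgk1, Pkm and Ldha were not called, with differences of -0.09, -0.15, 0.04, -0.03 and -0.02.

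**Figure D3:**
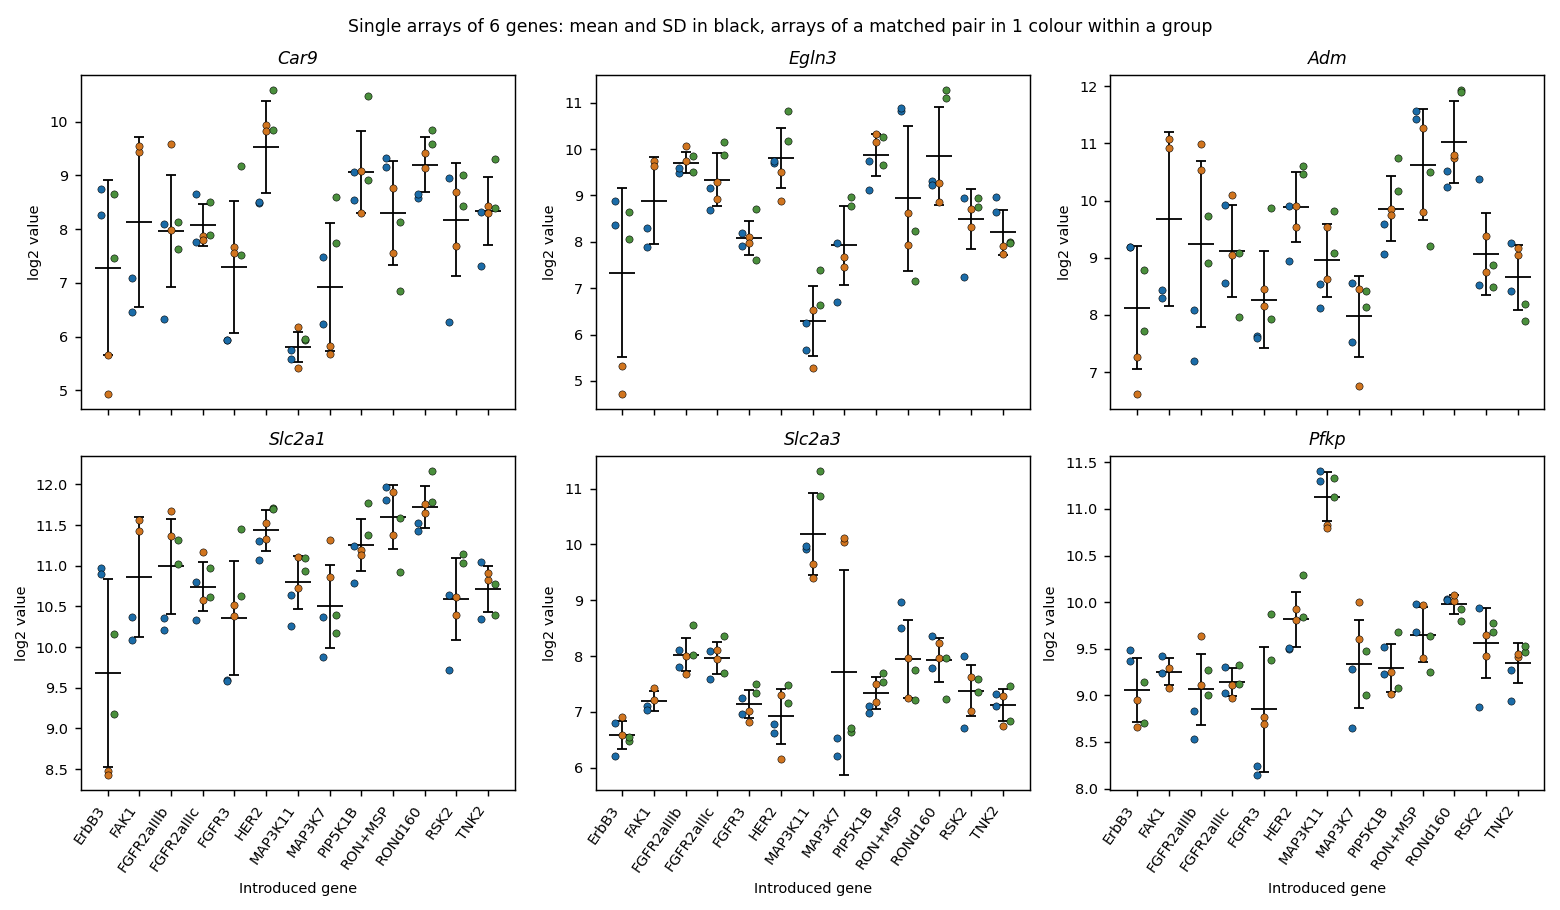
Log2 values of Car9, Egln3, Adm, Slc2a1, Slc2a3 and Pfkp on every array by introduced gene, with mean and SD in black and arrays of a matched pair in 1 colour within a group. MAP3K11 is low in Car9 and Egln3 and high in Slc2a3 and Pfkp, where its arrays start at 10.80 against at most 10.29 elsewhere; 1 ErbB3 pair lies far below its group in Egln3 and Slc2a1.

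In MAP3K11, 6 of 10 epithelial markers were higher (4 with the pairs, list means 0.36 to 0.92), as were 10 of 12 endothelial markers (6 with the pairs, 0.20 to 0.62). Of 10 fibroblast markers 7 were higher and 1 lower, the same with the pairs (0.35 to 0.74). Of 12 macrophage markers 7 were lower (6 with the pairs, -0.64 to -0.13). Of 24 skeletal muscle markers 12 were lower and 1 higher (3 and 1 with the pairs, -1.53 to -1.31), and of 11 proliferation markers 4 were lower and 1 higher (3 and 1 with the pairs). With the muscle, macrophage, epithelial or fibroblast mean as a covariate, 12, 21, 20 and 9 members were called. Over these 4 covariates Slc2a3 lay between 2.51 and 2.96, Pfkp between 1.59 and 1.76, Hk1 between 0.90 and 1.02, Egln3 between -3.41 and -2.11 and Car9 between -3.46 and -1.78, and each was called with every one.

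Set against HER2, the driver of the parental model, MAP3K11 had 18 members lower and 5 higher, where 27.7% of all genes were lower and 21.5% higher. Under the block of pairs 15 were lower and 4 higher, where 19.4% and 13.9% of all were. The members' median was -0.46, beside -0.03 over all genes. Car9 differed by -3.72 ± 0.55 (SE, n = 6 in each group; adjusted p = 8.95e-08), and every MAP3K11 array (at most 6.19) lay below every HER2 array (at least 8.48). Egln3, at most 7.39 against at least 8.89, was likewise apart and differed by -3.51 ± 0.52 (adjusted p = 7.16e-08). Pdk1 (-1.42), Ankrd37 (-1.36), Aldoc (-1.33), Ak4 (-1.33) and Ero1a (-1.30) fell by more than 1 log2 unit too. Of the 11 glycolytic enzymes 7 were lower, among them Pfkl (-0.87), Tpi1 (-0.54), Aldoa (-0.46), Pgam1 (-0.42), Pkm (-0.35) and Ldha (-0.32). Higher were Slc2a3 (3.27 ± 0.38, adjusted p = 9.85e-11), Pfkp (1.32), Hk1 (0.77), Pfkfb3 (0.60) and Pfkfb4 (0.58). Higd1a, Kdm3a, Mxi1 and Pfkfb4 lost the call with the pairs, and Pfkfb3 lost it with the mean of all probe sets of a gene. In this comparison 8 of 10 fibroblast markers were higher in MAP3K11 and 1 lower (8 and 1 with the pairs), and 10 of 12 endothelial markers were higher (9 with the pairs). With the fibroblast mean as a covariate 8 members were called: Car9 (-2.44), Egln3 (-2.54), Pdk1 (-0.83), P4ha1 (-0.54), Egln1 (-0.52), Slc2a3 (2.96), Pfkp (1.32) and Hk1 (0.73). These comparisons and those with the other 12 groups share arrays, so their values are not independent.

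MAP3K7 is the other kinase that the design text names as tested. Against it 4 members were higher and 2 lower in MAP3K11, where 16.6% of all genes were higher and 20.8% lower. The block of pairs left 3 higher and 0 lower, where 8.8% and 12.8% of all were. Slc2a3 was higher by 2.48 ± 0.38 (SE, n = 6 in each group; adjusted p = 2.82e-07, and 4.11e-05 with the pairs), Pfkp by 1.80 and Hk1 by 0.95, and P4ha2 by 0.75 without the pairs only. Egln3 (-1.63, adjusted p = 0.00954) and P4ha1 (-0.42) were lower, and neither held with the pairs. Arrays T1 replicate 2 and T3 replicate 1, a pair within MAP3K7, had Slc2a3 at 10.04 and 10.11 and Car9 at 5.68 and 5.82, where the other 4 arrays had Slc2a3 between 6.21 and 6.70. Without that pair, chosen after seeing the data, 5 members were higher and 2 lower, with Slc2a3 at 3.68, Pfkp at 2.03, P4ha2 at 1.05, Hk2 at 0.62 and Car9 at -1.70 (adjusted p = 0.0202). In the comparison of all arrays 8 of 12 macrophage markers were lower in MAP3K11 (4 with the pairs) and 4 of 10 epithelial markers higher (2 with the pairs). Of 11 proliferation markers 7 were higher (5 with the pairs). The proliferation mean was at -0.95 and -1.35 in that MAP3K7 pair and between -0.27 and -0.03 in the other 4 MAP3K7 arrays. In MAP3K11 it ran from -0.33 to 0.09. The part of these markers in the members' values was not tested.

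Slc2a3, Hk1 and Pfkp, which rose in MAP3K11, each have a partner of the same step on the list. These partners, Slc2a1, Hk2 and Pfkl, were not called there in the fit that counts every array as separate. Pfkl was called with the mean of all probe sets of a gene and with the macrophage or epithelial mean as a covariate. Hk2 was called with the macrophage mean. The balance of these 3 couples was taken on each array as the difference of the log2 values after centring each gene on its mean over 76 arrays, so that no level is set against another. The couples were chosen for these values, so the balance is a description and has no test. Slc2a3 minus Slc2a1, both glucose transporters, was at 1.498, 2.70 and 3.42 (lowest, median, highest) in MAP3K11 and at -2.16, -1.21 and -0.82 in HER2. Hk1 minus Hk2, the hexokinases, was at 0.83, 0.96 and 1.53 against -0.29, -0.18 and 0.18. Pfkp minus Pfkl, the phosphofructokinases, was at 1.40, 1.82 and 2.82 against -0.42, -0.25 and -0.05. The means differed by 3.91, 1.20 and 2.18, and the arrays of both groups did not overlap in any couple. Against MAP3K7 the means differed by 2.18 for Slc2a3 minus Slc2a1, with overlap, and by 0.64 for Hk1 minus Hk2 and 2.00 for Pfkp minus Pfkl, without overlap. Over the 70 arrays outside MAP3K11 the Pfkp balance ran from -1.01 to 0.99, below all MAP3K11 arrays, while the Slc2a3 and Hk1 balances reached 2.38 and 0.98.

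**Figure D4:**
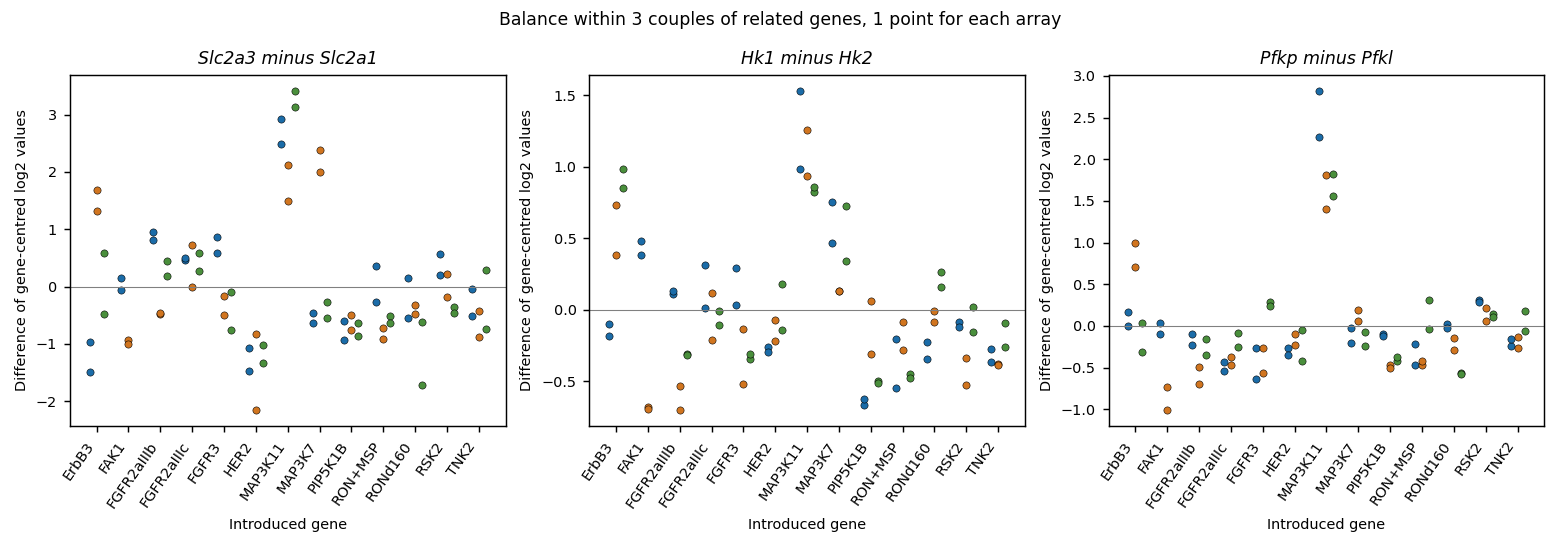
For each array, the gene-centred log2 value of Slc2a3 minus that of Slc2a1, of Hk1 minus Hk2 and of Pfkp minus Pfkl, by introduced gene, with arrays of a matched pair in 1 colour within a group. In the third panel all 6 MAP3K11 arrays (1.40 or higher) lie above the other 70 (0.99 or lower), and in the first 1 MAP3K7 pair lies among the MAP3K11 values.

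Against the other 12 groups, MAP3K7 tumours had 5 members lower and 0 higher, where 12.3% of all genes were lower and 12.2% higher. With the pairs as a block 0 were called by limma, where 4.14% and 3.76% of all were; 4 members then had an unadjusted p under 0.05, and 11 without the block. Adm was at 6.75, 8.28 and 8.56 in MAP3K7 against 6.62, 9.20 and 11.94, with all 6 arrays below the median of the others. It was lower by -1.42 ± 0.37 (SE, n = 6; adjusted p = 0.00339, and 0.0682 with the pairs). Car9 was at 5.68, 6.85 and 8.60 against 4.94, 8.36 and 10.59, and only part of the group was low. It differed by -1.20 ± 0.41 (adjusted p = 0.0249, and 0.189 with the pairs). Ero1a (-0.65), Hk2 (-0.49) and Tpi1 (-0.21) were the other 3. Without the pair of T1 replicate 2 and T3 replicate 1, an alternative chosen after seeing the data, Car9 was at -0.62 (adjusted p = 0.393) and Tpi1 was not called. Adm (-1.23), Ero1a (-0.88) and Hk2 (-0.79) kept their calls, and Slc2a3 (-1.15, adjusted p = 0.000124), Mxi1 (-0.52) and Kdm3a (-0.43) were then lower too. Of 11 proliferation markers 11 fell in MAP3K7 (10 with the pairs). The mean of that list was at -0.95 and -1.35 in the pair of T1 replicate 2 and T3 replicate 1. In the other arrays of the group it lay between -0.27 and -0.03. Of 10 fibroblast markers 4 were higher (2 with the pairs), and of 12 macrophage markers 3 (0 with the pairs by limma). The part of these markers in the members' values was not tested. Without T2 replicate 1 the members called were 2, of which 1 was higher and 1 lower. Without T1 replicate 2 or T3 replicate 1 they were 3, all lower.

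RSK2 and PIP5K1B tumours differed from the rest in few members. In RSK2, 2 members were higher and 0 lower, where 8.73% of all genes were higher and 9.52% lower, and with the pairs 1 was higher, where 1.49% and 1.1% of all were. Car12 (chromosome 9, 66712296 to 66766845), another membrane carbonic anhydrase, was at 5.87, 6.42 and 7.94 in RSK2 against 4.11, 5.25 and 7.21, with all 6 arrays above the median of the others. It was higher by 1.29 ± 0.24 (SE, n = 6; adjusted p = 0.000239, and 0.0153 with the pairs), and Ndrg1 by 0.57. Leaving out T1 replicate 2, T2 replicate 2 or T3 replicate 1 left 1 member called. In RSK2 22 of 24 skeletal muscle markers were higher (0 with the pairs by limma, list means 0.62 to 3.59), as were 9 of 12 endothelial markers (6 with the pairs) and 5 of 10 fibroblast markers (1 with the pairs), and 1 of 10 epithelial markers was lower, also with the pairs. With the muscle mean as a covariate 1 member was called, and the part of the other lists was not tested.

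In PIP5K1B, 1 member was higher and 1 lower, where 11.2% and 7.45% of all genes were, and 0 with the pairs by limma, where 2.37% and 1.24% of all were (2 members at an unadjusted p under 0.05). Egln3 was at 9.13, 9.94 and 10.32 in PIP5K1B against 4.72, 8.71 and 11.28, above the median of the others on each array, and was higher by 1.25 ± 0.38 (adjusted p = 0.0175, and 0.106 with the pairs). Hk1 was lower by -0.25. Of 12 endothelial markers 9 were lower in this group (0 with the pairs by limma) and of 10 fibroblast markers 5 (3 with the pairs), and their part was not tested. Without PIP5K1B T1 replicate 1 no member was called, and without T2 replicate 2, T2 replicate 3 or T3 replicate 2 there was 1.

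Among the FGF receptor groups, FGFR3 had 3 members lower and 0 higher, where 1.25% of all genes were lower and 1.35% higher. With the pairs 0 were called by limma, where 0% of all were in either direction, although 8 members had an unadjusted p under 0.05, against 17 without the block. The members' median was -0.38 and 30 of 33 differences were below 0. Slc16a3, the lactate exporter, was at 5.18, 5.67 and 6.47 in FGFR3 against 4.78, 6.72 and 7.71, with all 6 arrays below the median of the others. It was lower by -0.92 ± 0.21 (SE, n = 6; adjusted p = 0.0113, and 0.333 with the pairs), and Pfkp by -0.68 and Hk1 by -0.45. The arrays T1 replicate 1 and T2 replicate 1, a pair, were among the 10 lowest of all in 24 and 23 members, yet their Car12 values of 7.21 and 7.14 stood above the 4.56 to 4.999 of the other 4. Without T2 replicate 2 the count was 6.

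In FGFR2aIIIb 1 member was higher and 1 lower, where 7.17% and 4.69% of all genes were, and 0 with the pairs by limma, where 1.5% and 0.411% of all were (2 members at an unadjusted p under 0.05). Egln3 was at 9.49, 9.66 and 10.06 against 4.72, 8.71 and 11.28, a tight and high group that others exceeded. It was higher by 1.10 ± 0.38 (SE, n = 6; adjusted p = 0.0466, and 0.224 with the pairs), and Pfkp was lower by -0.48. Of the FGFR2aIIIb arrays, leaving out T1 replicate 1, T2 replicate 1 or T3 replicate 2 ended both calls, and leaving out any of the other 3 ended that of Egln3, as did leaving out 1 of several arrays of other groups. In FGFR2aIIIc no member was called by limma, where 1.08% of all genes were higher and 0.534% lower, nor with the pairs, where 0.0649% and 0.00721% of all were; 2 members had an unadjusted p under 0.05, and 0 with the pairs.

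In TNK2 only Hk1 was called, lower by -0.29 ± 0.08 (SE, n = 6; adjusted p = 0.0248, and 0.22 with the pairs), where 3.26% of all genes were higher and 1.9% lower. It was at 9.81, 9.88 and 9.94 against 9.45, 10.12 and 11.25, a narrow range below the median of the others. With the pairs 0 members were called by limma, where 0.0649% of all were higher and 0.0288% lower, and 1 had an unadjusted p under 0.05. The Hk1 call ended without T1 replicate 1, T1 replicate 2, T2 replicate 1 or T2 replicate 3. In FAK1, with 4 arrays, no member was called by limma, where 3.42% of all genes were higher and 5% lower, nor with the pairs, where 0.389% and 0.418% of all were; 1 member had an unadjusted p under 0.05, and 0 with the pairs.

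No member passed the test between T labels. For T2 against T1 and for T3 against T1, 0 members were called, where 0% of all genes were in either direction. With the pairs 0 were called as well, where 0.00721% of all genes were lower in T3 and 0% otherwise. At an unadjusted p under 0.05 there were 0 members for T2 and 2 for T3, and 2 in each with the pairs. The members' medians were 0.07 and 0.15, with 28 and 31 of 33 differences above 0. Car9 had the largest, at 0.36 ± 0.26 (SE) for T2 and 0.52 ± 0.28 for T3.

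The HIF machinery itself was taken as a list of 9 genes outside the members; the shares over all genes given above for each group are the background of these counts. In ErbB3 3 of the 9 were higher and 2 lower, and 0 and 1 with the pairs, with Cited2, an inhibitor of HIF, at -0.84, Hif1a at -0.21 and Vhl, which marks HIF for destruction, at 0.19. In HER2 2 were lower (1 with the pairs), Epas1 (HIF-2 alpha) by -0.56 and Arnt by -0.15. In RONd160 1 was higher and 2 lower, and 0 and 0 with the pairs by limma: Cited2 differed by 0.49, Epas1 by -0.53 and the asparaginyl hydroxylase Hif1an by -0.14. In RON+MSP 2 were higher and 1 lower, and 1 and 0 with the pairs: Hif1a differed by 0.36, Hif3a by 0.25 and Egln2 by -0.12. In MAP3K11 2 were higher, also with the pairs, Epas1 by 0.98 and Hif1an by 0.33, and Epas1 was higher by 1.42 against HER2.

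Of 17 further hypoxia targets, 9 were lower and 2 higher in ErbB3 (3 and 0 with the pairs), where 13.6% of all genes were lower and 15% higher. HER2 had 4 higher and 2 lower (1 and 1 with the pairs), where 15.5% and 11.1% of all genes were. RONd160 had 4 higher (2 with the pairs), where 11.4% of all were, and RON+MSP 4 higher (0 with the pairs by limma), where 4.18% were. MAP3K11 had 4 higher and 4 lower (4 and 2 with the pairs), where 25% and 29.3% of all were. The largest differences were Ppp1r3c (1.59), Plin2 (-0.77) and Lox (0.74) in ErbB3, Lox (-0.96) in HER2, Ddit4 (1.11) and Bhlhe40 (0.78) in RONd160, and Plin2 (0.94) and Rora (0.82) in MAP3K11. Lox crosslinks collagen and Plin2 coats lipid droplets. Of 16 other isoenzymes and transporters of the same pathway, 6 were higher and 3 lower in ErbB3 (2 and 0 with the pairs). Of all genes 15% and 13.6% were, and the muscle enzyme Pgam2 stood at 1.34 and Ldhb at 0.93. In HER2 3 were higher and 2 lower (1 and 2 with the pairs), where 15.5% and 11.1% of all were, with Ldhb at -0.94. In MAP3K11 10 of the 16 were lower and 1 higher (5 and 1 with the pairs), where 29.3% and 25% of all were. The lower ones were led by Bpgm (-2.05), Pdk4 (-1.39) and Pdk3 (-1.04). For counts with the pairs, the shares of all genes are those given above for each group.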

How the data were processed

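The authors deposited log2 values, 1 for each of 45101 probe sets on each of 76 arrays; per the submitters' processing notes they used affy, and background correction, normalization and summarisation are not given in the sources used here. Array medians lay between 5.45 and 5.56, and the values were used as deposited. The number of arrays limits the precision. By the platform annotation 34958 probe sets name 1 gene, 932 several and 9211 none; the highest-mean probe set stands for a gene. Genes above the 40th percentile in at least 4 arrays were tested (13868 genes).

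limma 3.58.1 (with statmod 1.5.0, data.table version 1.17.8 and R 4.3.3) fitted introduced gene and T label, with 61 residual degrees of freedom. Tests were two-sided, with Benjamini-Hochberg adjustment over the 13868 genes, and an adjusted p under 0.05 was a call. The pair block used duplicateCorrelation (0.628). Replicate numbers in the titles did not pair arrays: the median r of deviations was -0.002 for the same number and -0.004 for others. The fit was tested on simulated data with independent noise on each array. Those data held no pairs, so that test cannot show how the fit behaves with paired arrays. Motifs were searched with Python 3.11.15 and pandas 2.3.3, and figures drawn with matplotlib 3.10.9.

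The members, lists, rule for named genes and alternatives were chosen with earlier results of these data known. Values per array are given for a group's called members of 1 log2 unit or more, at most 4, or else its largest called member; of the other pathway lists, up to 3 called genes per comparison are named. No value column was left unused (0). The other gene named in the title of the series is not covered here.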

Additional observations from a re-analysis of the deposited data

How the results depend on the processing

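The 23 differences of members whose values per array are given kept their sign under every alternative run (0 reversed); 11 kept their call with the pairs of arrays as a random block and 12 did not. Differences that were not called did turn without the ErbB3 pair: in ErbB3, Car9 from -0.84 to 0.13, Egln1 from -0.17 to 0.08 and Higd1a from -0.28 to 0.03. With that block the counts of members called fell to 7 in HER2, 7 in MAP3K11, 8 in RONd160, 1 in RSK2, 3 for MAP3K11 against MAP3K7, and 0 in FGFR2aIIIb, FGFR3, MAP3K7, PIP5K1B, RON+MSP and TNK2. With the replicate number of the titles as a block, which is no pairing of samples here, 1 was called in FGFR2aIIIb, 20 in HER2 and 27 in ErbB3. Without the filter and after quantile normalization 1 was called in FGFR2aIIIb, and with the mean of all probe sets 1 in PIP5K1B. With marker means as covariates the counts were, for muscle, 1 in RSK2 and 0 in TNK2; for macrophages, 17 in ErbB3, 11 in HER2, 21 in MAP3K11 and 2 in RON+MSP; for epithelium, 14, 1, 20 and 14 in the same groups and 11 in RONd160; and for fibroblasts, 2 in HER2, 18 in RON+MSP and 8 for MAP3K11 against HER2. Without the ErbB3 pair, 9 were called in ErbB3. Why the counts moved was not tested. The share of all genes called with each covariate or left-out array is not given here. A moved count can thus not be read as particular to the members.

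Leaving out each array in turn gave counts of 19 to 28 in ErbB3, 15 to 23 in HER2, 13 to 23 in RONd160, 2 to 17 in RON+MSP, 11 to 13 in MAP3K11, 2 to 7 in MAP3K7, 2 to 6 in FGFR3, 0 to 2 in FGFR2aIIIb, 0 to 3 in PIP5K1B, 1 to 3 in RSK2, 0 to 1 in TNK2, 5 to 8 for MAP3K11 against MAP3K7, 22 to 25 for MAP3K11 against HER2, and 0 to 0 in FAK1, FGFR2aIIIc and for the T labels.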
